A study of Mus musculus with 8 samples.

Results

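Of 8 hepatocyte factor genes examined after acute endoplasmic reticulum stress (ERS), 4 had annotated start sites inside broad regions called as losing acetylation of histone H3 lysine 27 (H3K27ac). These 4 were Hnf4a, Onecut1, Foxa1 and Foxa2. A call covers a region as a whole, so the width of a region is not the extent of the loss. Start sites of Gata4 lay in a region called as gaining the mark. Those of Onecut2 and Foxa3 lay in unchanged regions, and none of the Prox1 start sites lay in a listed region. The 8 genes were taken by name, with earlier results of these data known, out of 55341 gene names in the GENCODE M21 annotation, of which 12261 had a transcription start site (TSS) in an H3K27ac region.

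H3K27ac ChIP-seq was performed on mouse primary hepatocytes (MPH) of adult male WT C57Bl6 mice, kept in serum-free medium and exposed for 4 h to 1 µM thapsigargin or to the 0.04% DMSO vehicle. Thapsigargin blocks the calcium pump of the endoplasmic reticulum and so provokes ERS. Each treatment had 3 H3K27ac libraries and 1 input library. Analysed here were 3 lists of regions for the mm10 genome, 3376 regions where H3K27ac was lower after thapsigargin (H3K27ac DOWN), 5508 where it was higher (H3K27ac UP) and 23312 called unchanged, and they hold each region's position and list. In these lists there is thus no value per library, no size of the change, no error between experiments and no sequencing depth behind any region given here, and counts are set beside the same counts over all genes or regions without a test. Among marker genes, 6 of 7 for hepatocytes had a TSS in a region (Alb, Krt18, Apoa1, Ttr, Cps1 and Ass1, but not Cyp2e1). Counts were 0 of 4 for stellate cells, 1 of 4 for Kupffer cells (Cd68), 1 of 4 for endothelial cells (Stab2) and 0 of 3 for cholangiocytes. Over the annotation, 12261 of 55341 gene names had a TSS in a region. So few markers do not measure the purity of the culture.

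HNF4A is a nuclear receptor that binds DNA without a hormone and sustains much of the adult hepatocyte programme. FOXA1, FOXA2 and FOXA3 are winged-helix pioneer factors that bind sites within closed chromatin, ONECUT1 (HNF6) and ONECUT2 are cut-homeodomain factors, PROX1 is a homeodomain factor of hepatocyte and lymphatic fate, and GATA4 is a zinc-finger factor of early liver and heart. Many of these proteins bind one another's promoters and enhancers, and H3K27ac marks promoters and enhancers that are in use.

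Over the set, TSSs closer than 500 bp to the next were joined into 17 alternative promoters, holding 23 distinct TSSs. Of the promoters, 8 lay in a DOWN region, 1 in an UP region, 2 in unchanged regions and 6 in none. The 8 belonged to Hnf4a, Onecut1, Foxa1 and Foxa2, shared 1 region per gene and are thus not separate calls. Counted as genes, 4 of 8 had a TSS in a DOWN region, where 8.91% of the 12261 genes with a TSS in a region did, and 1 of 8 had a TSS in an UP region, where 21.4% did. The 8 include Prox1, which had no TSS in a region. Among the 7 genes that did, the counts were likewise 4 and 1. A TSS in none of the lists may lie outside any called peak or in a region that the study set aside because neither rising nor falling stretches were in clear majority, and these cases cannot be told apart.

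The sequences of the Hnf4a promoters and of the study's Hnf4a qPCR amplicons are shown first, since Hnf4a had the most DOWN regions. Hnf4a (ENSMUSG00000017950.16) runs on the plus strand of chromosome 2 from 163506808 to 163572910 in mm10, and its upstream promoter, known as P2, is separated from the adult liver promoter, P1. RefSeq promoter sequences (build GRCm38.p6, the same chromosomes as mm10) were found for 6 of the 8 genes, and no entry was matched for Onecut2 and Gata4. The P2 stretch (chr2:163506607-163506807, plus strand, ending at the base before the GENCODE TSS) has the ONECUT-type letters ATCAAT and the first bases of a GATA match, AGATAA, in capitals. In the P1 stretch (chr2:163546905-163547154, plus strand) the capitals are the pair of primers of the study's Hnf4a promoter qPCR, and in both enhancer stretches (chr2:163575364-163575509 and chr2:163586863-163586941, plus strand) they are the primers of its Hnf4a enhancer qPCRs. The P1 stretch ends at the base before the RefSeq start at 163547155. It begins past the first GENCODE start of P1, at 163546817, and overlaps an annotated Hnf4a exon.
Hnf4a P2: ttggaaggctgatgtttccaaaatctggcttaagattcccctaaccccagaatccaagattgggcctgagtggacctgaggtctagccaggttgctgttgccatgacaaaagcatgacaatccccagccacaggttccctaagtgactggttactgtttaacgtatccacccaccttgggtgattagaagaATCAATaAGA
Hnf4a P1: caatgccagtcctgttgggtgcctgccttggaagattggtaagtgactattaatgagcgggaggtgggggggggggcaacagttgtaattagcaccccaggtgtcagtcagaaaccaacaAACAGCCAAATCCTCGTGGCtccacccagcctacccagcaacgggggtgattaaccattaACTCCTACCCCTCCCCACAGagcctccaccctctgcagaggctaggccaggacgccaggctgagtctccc
Hnf4a enhancer A: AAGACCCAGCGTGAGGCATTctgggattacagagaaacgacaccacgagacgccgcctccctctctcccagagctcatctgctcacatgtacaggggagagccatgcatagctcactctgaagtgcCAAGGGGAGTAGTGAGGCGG
Hnf4a enhancer B: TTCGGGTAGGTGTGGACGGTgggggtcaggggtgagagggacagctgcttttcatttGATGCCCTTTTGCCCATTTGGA

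Of the 5 Hnf4a TSSs, 4 lay in 1 DOWN region of 13466 bp (chr2:163546364-163559829). That region was wider than 99.6% of all 32196 regions and wider than 98.5% of the DOWN regions. It began 453 bp before the first P1 start site and reached 13012 bp past it, over exons 1 to 5 of the 10 exons of the transcript Hnf4a-202. The P1 amplicon of 80 bp lay 661 bp into it, and a further annotated start site at 163550083 lay in the same region.

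The P2 start site stood at the edge of another DOWN region. The GENCODE TSS at 163506808 lay in no region, but a DOWN region of 663 bp began 35 bp downstream of it, and the RefSeq start at 163506857, 49 bp from the GENCODE one, lay inside that region. Both Hnf4a promoters thus had a DOWN region at or within 35 bp of them, one broad and one narrow. The next DOWN region, of 7192 bp, ended 4542 bp before P1 and held the TSS of Hnf4aos, the antisense transcript that overlaps Hnf4a. H3K27ac carries no strand, so acetylation there cannot be divided between Hnf4a and Hnf4aos.

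In the Hnf4a gene body 3 DOWN, 0 UP and 3 unchanged regions were found. DOWN regions took up 32.3% of its 66103 bp and unchanged regions 6.47%. The unchanged ones, of 666, 1015 and 2596 bp, lay in the intron after P2, at exon 7 and over exons 9 and 10.

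Within 100 kb of its TSSs, Hnf4a had 8 DOWN, 2 UP and 12 unchanged regions, which was the most DOWN regions of the 8 genes. For 4 of the 8 DOWN regions the nearest protein-coding TSS was that of Hnf4a, and the other DOWN regions were nearer to other genes. Among all 12261 genes with a TSS in a region, 13 (0.106%), Hnf4a included, had 8 or more, and genes that share a window are counted apart in that number. The TSSs of Hnf4a are spread over 43275 bp, so its window spanned 243 kb. With the TSSs of GENCODE basic transcripts alone, all of them at P1, it still had 8 DOWN regions, as 11 of 12261 genes (0.0897%) had 8 or more, and 1 UP region.

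Outside the gene, the DOWN regions around Hnf4a lay mostly to its 3′ side. A 2286 bp DOWN region stood 11676 bp upstream of P2, and 4 more followed the gene, of 3171, 2609, 5060 and 768 bp, at 23307, 36098, 43221 and 87260 bp from the nearest TSS. Of these regions outside the gene, only the 3171 bp one had the TSS of Hnf4a as its nearest protein-coding TSS. Enhancer amplicon A lay in the 3171 bp region and amplicon B in the 2609 bp region, so all 3 Hnf4a amplicons fell in DOWN regions. The 2 UP regions were 4004 bp wide at 85937 bp, over the TSS of the neighbouring gene Oser1, and 1942 bp wide at 65932 bp. Within the stretch from the upstream DOWN region to the one at 43221 bp, DOWN and unchanged regions alternated or followed each other and no UP region was listed.

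**Figure D1:**
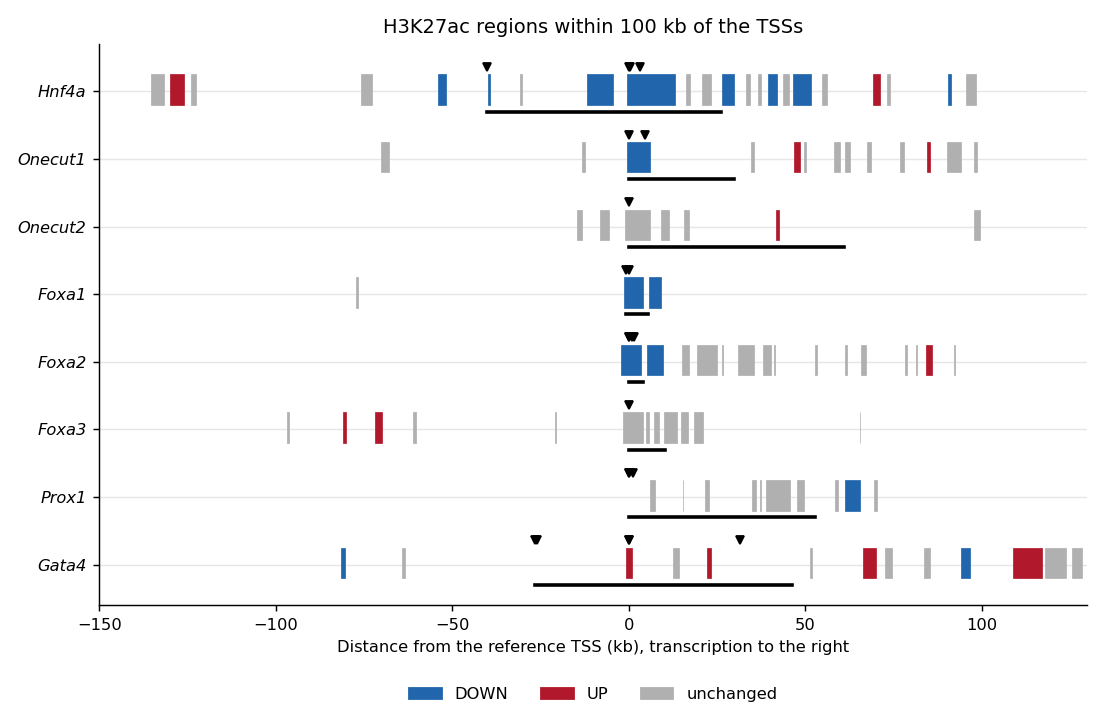
H3K27ac regions within 100 kb of the TSSs of the 8 genes, by distance in kb from a reference TSS (the most upstream TSS of the promoter with most basic transcripts; transcription runs to the right). Blocks are regions at their width, in blue for DOWN, red for UP and grey for unchanged, black lines are gene bodies and triangles are TSSs. Hnf4a carries 8 blue blocks, Foxa1 and Foxa2 2 each at the gene itself, and Gata4 4 red ones.

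The sequences upstream of Onecut1 and of the FOXA genes follow, because they let the DOWN promoters be read beside that of Foxa3, which was unchanged. Each ends at the base before the RefSeq start (for Foxa1, before its annotated untranslated region), and capitals mark matches to FOXA or ONECUT letters. The stretches are chr9:74861671-74861920 (plus strand) for Onecut1, chr12:57546122-57546361 (minus strand) for Foxa1, chr2:148046970-148047219 (minus strand) for the upstream promoter of Foxa2 and chr7:19023540-19023789 (minus strand) for Foxa3.
Onecut1: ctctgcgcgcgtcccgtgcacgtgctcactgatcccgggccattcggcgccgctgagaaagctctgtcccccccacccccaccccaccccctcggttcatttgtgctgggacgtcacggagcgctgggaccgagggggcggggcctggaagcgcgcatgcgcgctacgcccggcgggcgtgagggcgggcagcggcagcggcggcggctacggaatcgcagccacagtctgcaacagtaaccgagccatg
Foxa1: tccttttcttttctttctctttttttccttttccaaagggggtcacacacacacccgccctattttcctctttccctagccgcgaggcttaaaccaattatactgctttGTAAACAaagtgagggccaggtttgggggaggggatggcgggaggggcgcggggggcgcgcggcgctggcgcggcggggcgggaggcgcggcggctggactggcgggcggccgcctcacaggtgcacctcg
Foxa2: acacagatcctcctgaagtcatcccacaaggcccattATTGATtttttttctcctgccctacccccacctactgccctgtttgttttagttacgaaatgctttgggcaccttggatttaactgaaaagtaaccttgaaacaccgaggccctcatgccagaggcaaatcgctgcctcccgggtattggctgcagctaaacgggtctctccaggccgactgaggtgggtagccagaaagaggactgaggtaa
Foxa3: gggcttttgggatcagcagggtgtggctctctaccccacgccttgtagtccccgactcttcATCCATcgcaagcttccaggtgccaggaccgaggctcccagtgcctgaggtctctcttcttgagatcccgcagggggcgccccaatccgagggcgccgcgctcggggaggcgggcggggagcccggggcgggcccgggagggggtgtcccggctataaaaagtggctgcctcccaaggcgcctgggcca

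The FOXA letters TGTTTAC (as GTAAACA on the printed strand) occurred once, in the Foxa1 stretch, where 3.17% of 32841 RefSeq promoters hold them in the 250 bases before the start. The ONECUT letters ATCNAT, searched on both strands, occurred in the Foxa2 and Foxa3 stretches and at Hnf4a P2, where 18.9% of promoters hold them. The narrower form ATTGAT, which is part of the ONECUT search, was found for Foxa2 and, on the other strand, for Hnf4a P2, against 6.72% of promoters. The Onecut1 stretch and Hnf4a P1 held none of the 9 motifs searched. A match describes letters only and is not evidence of binding.

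Onecut1 (ENSMUSG00000043013.10, chromosome 9, 74861921 to 74891781, plus strand) had both of its TSSs in 1 DOWN region of 6457 bp (chr9:74861385-74867841). The region began 536 bp upstream of the first TSS and covered exon 1 of 2 of Onecut1-201, and its width exceeded that of 96.9% of all regions. The study's Onecut1 promoter amplicon of 110 bp, at chr9:74862798-74862907, lay within the coding sequence of exon 1, 1413 bp into this region. It was the only region in the gene body and covered 19.8% of it.

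Away from its promoter, Onecut1 had no other DOWN region within 100 kb. The remaining 12 regions were 10 unchanged ones and 2 UP ones of 1557 and 954 bp, at 42376 and 79944 bp downstream of its TSSs, neither of which held a TSS of any gene. The DOWN region at the promoter made up 27.1% of the summed width of the listed regions in its window.

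Onecut2 (ENSMUSG00000045991.19, chromosome 18, 64340020 to 64400987, plus strand), its closest relative in the set, had its single TSS in an unchanged region of 7334 bp. That region was wider than the DOWN region at Onecut1 and wider than 98.9% of unchanged regions. The gene body held 2 more unchanged regions, of 2284 and 1429 bp, and 1 UP region of 596 bp that lay 41883 bp past the TSS in the intron. No DOWN region was found within 100 kb, and the nearest stood 259925 bp from the TSS. The start-site regions of the ONECUT pair were both among the widest 10% of regions but were in different lists.

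Foxa1 (ENSMUSG00000035451.7, chromosome 12, 57540628 to 57546916, minus strand) was the most isolated of the 8 genes. Both of its TSSs lay in a DOWN region of 5374 bp (chr12:57541969-57547342) that touched both exons of Foxa1-201 and covered 78.7% of the 6289 bp gene body. A DOWN region of 3353 bp lay just past the 3′ end of the gene, 1634 bp from the first. The only other region within 100 kb was an unchanged one of 463 bp at 75945 bp. DOWN regions therefore made up 95% of the summed width of the listed regions in its window, and the nearest UP region stood 1464094 bp away.

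Foxa2 (ENSMUSG00000037025.11, chromosome 2, 148042877 to 148046969, minus strand) showed a like arrangement at the gene itself. All 4 of its TSSs, in 2 promoters, lay in a DOWN region of 5650 bp (chr2:148043516-148049165) that covered 84.4% of the gene body and all 3 exons of Foxa2-201. A DOWN region of 4497 bp followed 1869 bp beyond it, downstream of the gene, and held the TSS of the long non-coding transcript 9030622O22Rik. Foxa1 and Foxa2 thus each had a pair of adjacent DOWN regions, 1 at the TSSs and 1 behind the gene.

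Farther from Foxa2 the marks were mostly unchanged. Of 13 regions between 10 and 100 kb, 12 were unchanged, from 232 to 5729 bp wide, 1 was UP (1748 bp wide, 82719 bp away) and 0 were DOWN. All of them lay downstream of the gene, and no region was listed within 100 kb on its upstream side. For all 15 regions in the window the nearest protein-coding TSS was that of Foxa2.

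Foxa3 (ENSMUSG00000040891.6, chromosome 7, 19013284 to 19023538, minus strand) differed from its relatives in its calls. Its TSS lay in an unchanged region of 5562 bp (chr7:19019540-19025101), between those at Foxa1 and Foxa2 in width, and this region also held a TSS of Sympk, which encodes a scaffold of mRNA 3′ end processing. All 4 regions in the gene body were unchanged and took up 65.1% of it. The window held 0 DOWN regions, 10 unchanged ones and 2 UP ones, of 1902 bp over the TSS of the homeobox gene Six5 at 69875 bp and of 969 bp at 79996 bp. The nearest DOWN region stood 106896 bp from the TSS.

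**Figure D2:**
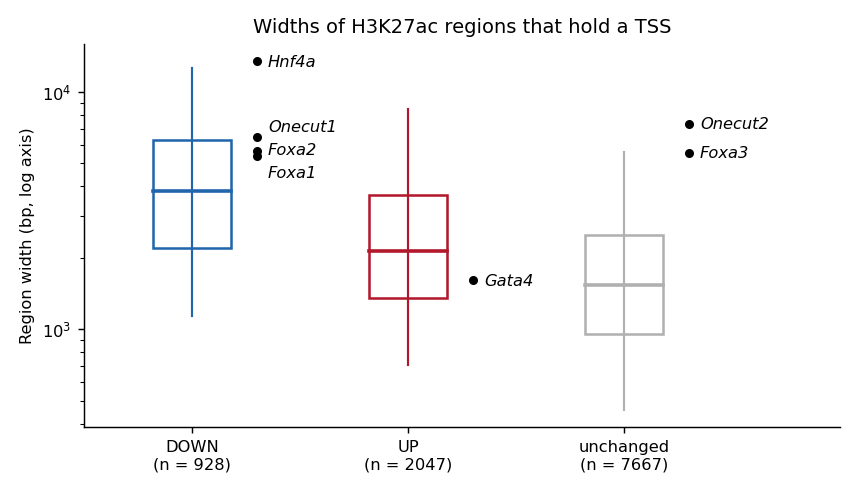
Widths in bp (log axis) of regions that hold a TSS of any gene, by list; boxes run from the lower to the upper quartile with the median as a bar, and lines from the 5th to the 95th percentile. Black points are the 7 regions at the named genes, and 6 of them lie above the upper end of the box for unchanged regions while Gata4, at 1611 bp, lies below the UP median of 2136 bp. Against their own list, Foxa1 and Foxa2 lie inside the DOWN box, which ends at 6291.25 bp, and Onecut1 and Hnf4a lie above it.

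Width and list were not independent across the genome. Regions at a TSS had a median width of 3828.5 bp in the DOWN list, 2136 bp in the UP list and 1530 bp in the unchanged list. Of the 7 regions at the named genes, 6 were at least 5374 bp wide and so among the widest 10% of all regions. Among those, 25.7% of the 1813 regions at a TSS were DOWN and 26.5% were UP, against 4 DOWN, 0 UP and 2 unchanged among the 6 here. The share of DOWN regions to set these genes against is therefore larger than that over all genes.

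Prox1 (ENSMUSG00000010175.13, chromosome 1, 190118035 to 190170714, minus strand) was the 1 gene without a listed region at any TSS. Its 3 TSSs formed 2 promoters, and the nearest region, an unchanged one of 1397 bp, began 4645 bp downstream of the second promoter and 5926 bp from the first. Its gene body held 7 unchanged regions, from 213 to 6945 bp wide, which took up 25.2% of it, and 0 changed ones. The widest of these touched no exon of Prox1-202. The only changed region within 100 kb was a DOWN region of 4336 bp (chr1:190105040-190109375) past the 3′ end of the gene, 60024 bp from the nearest TSS, and the nearest UP region was 1009970 bp away.

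Gata4 (ENSMUSG00000021944.15, chromosome 14, 63198922 to 63271692, minus strand) was the 1 gene with a TSS in an UP region. The region was 1611 bp wide (chr14:63244275-63245885) and held 2 of its 5 TSSs, those of the promoter of Gata4-201 and Gata4-202. The 3 other promoters, 2 upstream and 1 within the gene, lay in no region. The gene body also held an UP region of 1226 bp, 8321 bp from the most downstream TSS, an unchanged region of 1743 bp and 0 DOWN regions, and regions took up only 6.29% of the 72771 bp.

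The window of Gata4 was the 1 with most UP regions. It held 4 UP, 2 DOWN and 7 unchanged regions, and 8.08% of all genes with a TSS in a region had 4 or more UP regions. The 2 widest of the 4, of 8170 and 3556 bp, covered start sites of the neighbouring genes Ctsb, which encodes the lysosomal protease cathepsin B, and Fdft1, which encodes squalene synthase. The DOWN regions, of 2597 and 1203 bp, lay 62593 bp downstream and 53946 bp upstream of the nearest Gata4 TSS and held no TSS. The Gata4 TSSs are spread over 58085 bp, giving a window of 258 kb.

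**Figure D3:**
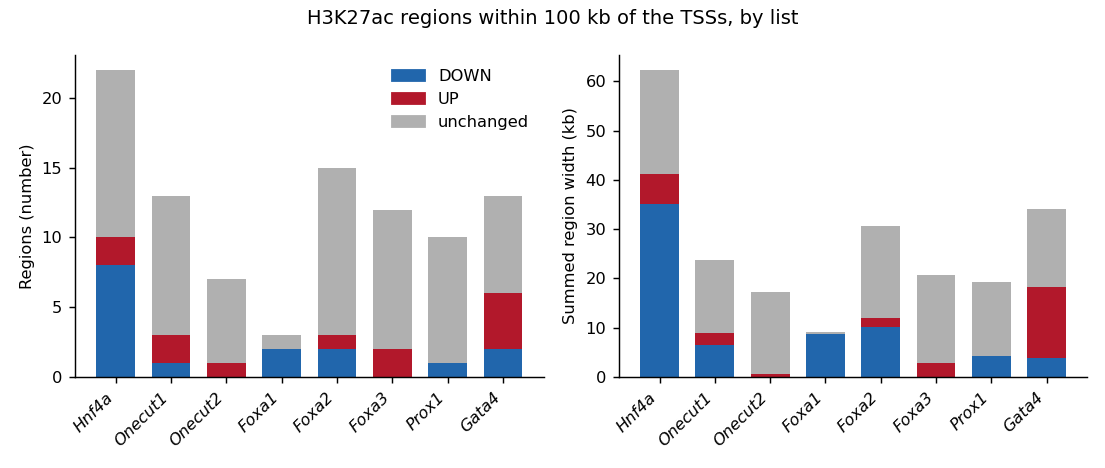
Number of H3K27ac regions (left) and their summed width in kb (right) within 100 kb of the TSSs of each gene, stacked by list. Hnf4a has the most DOWN regions, 8, Foxa1 the fewest regions, 3, and Gata4 the most UP regions, 4.

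Summed over the 8 genes, 95 regions lay within 100 kb of a TSS, 16 DOWN, 12 UP and 67 unchanged, and none was counted for more than 1 gene. Distance alone does not assign a region to a gene, and for 52 of the 95 the nearest protein-coding TSS was that of the gene counted. DOWN regions were 16.8% of them, against 10.5% of all regions, and UP regions 12.6%, against 17.1%. Of the 28 changed regions 57.1% were DOWN, where 38.0% of all changed regions were. Hnf4a supplied 8 of the 16, and without it 44.4% of the changed regions were DOWN.

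Counted by gene, at least 1 DOWN region within 100 kb was found for 6 of 8 genes (44.9% of all genes with a TSS in a region) and at least 1 UP region also for 6 of 8 (67.6%). The 8 again include Prox1, which had no TSS in a region. More DOWN than UP regions were found for 4, Hnf4a, Foxa1, Foxa2 and Prox1, against 21.7% of all genes. In the gene body, 4 of 8 had a DOWN region (15.0% of all genes) and 2 of 8, Onecut2 and Gata4, an UP region (29.7%). For Onecut1, Foxa1 and Foxa2 the only DOWN region in the body was the 1 already counted at their TSSs. The median count within 100 kb was 1.5 DOWN regions, against 0 for all genes, 1.5 UP regions, against 1, and 9.5 unchanged regions, against 5.

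DOWN regions made up a larger share of the regions near the start sites of these genes than of those farther off, and 8 of the 16 lay within 10 kb. Within 10 kb of a TSS there were 18 regions, of which 8 (44.4%) were DOWN and 2 (11.1%) were UP, while over all genes 9.05% of such pairs of a region and a gene were DOWN and 18.3% UP. Between 10 and 100 kb there were 77 regions, of which 8 (10.4%) were DOWN and 10 (13%) UP, against 10.1% and 16.7% over all genes. The 8 near ones belonged to Hnf4a (3), Foxa1 (2), Foxa2 (2) and Onecut1 (1), and 5 of the 8 far ones belonged to Hnf4a. These shares are not matched for width, and wide regions at a TSS were DOWN more often, 25.7% of them in the widest 10%.

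**Figure D4:**
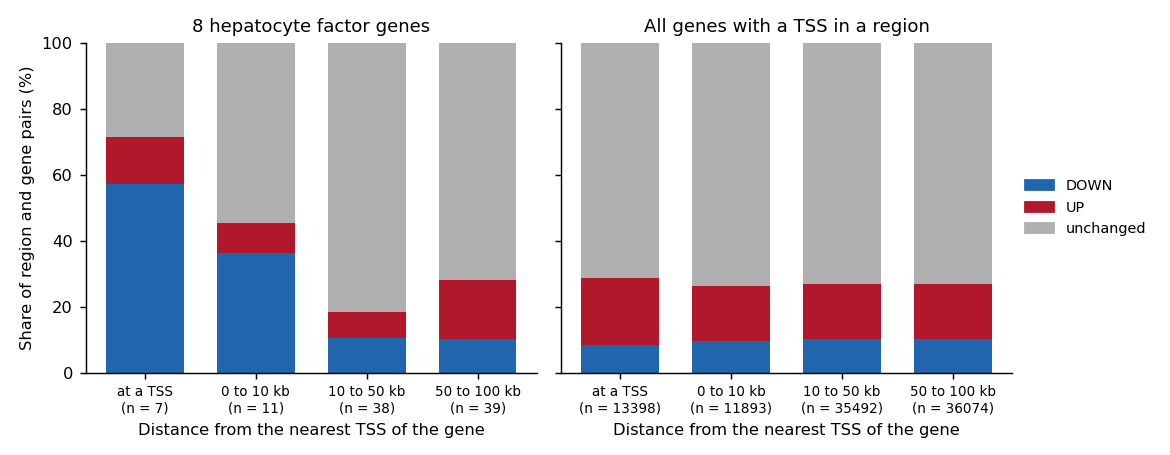
Share (%) of DOWN, UP and unchanged regions by distance from the nearest TSS of a gene, for the 8 genes (left) and all 12261 genes with a TSS in a region (right), with the number of region and gene pairs under each bar. At a TSS 57.1% of the 7 regions of the named genes are DOWN, and beyond 10 kb their DOWN shares of 10.5% and 10.3% are near the 10.1% of all genes.

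Most relatives of these factors, like most annotated genes, had no start site in a region. Of 8 related genes (Hnf4g, Onecut3, Prox2, Gata1, Gata2, Gata3, Gata5 and Gata6), 2 had a TSS in a region, where 12261 of all 55341 gene names did. The 2 were Gata6 (5779 bp) and Prox2 (1561 bp), both of them unchanged. GATA6, the other GATA factor of the liver, thus had a start site region of another list than GATA4.

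Among 20 other liver-enriched factors, 19 had a TSS in a region, which was DOWN for 5 and UP for 4 of them. DOWN regions held TSSs of the nuclear receptor genes Nr5a2 (4032 bp, with an unchanged region of 2633 bp at another TSS), Nr1h4 (12673 bp, with an unchanged region of 5773 bp at another of its TSSs), Nr1i2 (16806 bp) and Nr2f2 (3438 bp) and of Creb3l3 (3903 bp). The UP ones were Cebpb (8393 bp), Rxra (6016 bp, with unchanged regions at its other TSSs, one of 15844 bp), Sox9 (2906 bp) and Zfpm1 (4075 bp, with an unchanged region of 1515 bp at another TSS), which encodes the GATA cofactor FOG1. Of 23 textbook target genes of HNF4A and FOXA factors, 20 had a TSS in a region, which was DOWN for 8 and UP for 0 of them. The DOWN ones included Ahsg (25256 bp), Slc2a2 (12825 and 9157 bp), Fgb (10425 bp) and Apoa1 with Apoc3, which shared 1 region of 14886 bp and are thus not separate. Alb (8259 bp), Ttr (5284 bp) and Apob (5891 bp) were in unchanged regions. Over the 12261 genes, start sites were DOWN for 8.91% and UP for 21.4%, and among regions at a TSS in the widest 10%, to which the DOWN ones named here mostly belong, 25.7% were DOWN and 26.5% UP.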

How the data were processed

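H3K27ac ChIP-seq and input libraries came from MPH treated with thapsigargin or DMSO. Per the study's methods and the submitters' processing notes, the authors aligned reads with Bowtie to mm10, removed duplicates and blacklisted reads, called broad MACS2 peaks on the pooled libraries with input as control, and tested sliding bins with csaw in a design paired by experiment. Regions in which neither rising nor falling bins were in clear majority were set aside by the authors. A listed region was called from its bins combined, so it may hold bins of the other direction or without change. Its width is therefore not the extent of the change. The deposited values are region starts and ends in bp (other than counts or signal), with no value per library. The printed code orders its contrast as DMSO against thapsigargin, which taken alone would turn the sign of every call, and the names UP and DOWN were taken as the authors give them. With these names, 7 of the study's 8 ERS genes for ChIP-qPCR, Hspa5 and Ddit3 among them, had a TSS in an UP region and 0 in a DOWN region (a count added after the values were seen).

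Starts were moved to 1-based positions. Regions were joined with all GENCODE M21 transcripts using Python 3.11.15 and pandas 2.3.3: a TSS within a region, a region overlapping the gene body, and a region within 100 kb of a TSS. TSSs within 500 bp formed 1 promoter. Interval lookup and motif search (9 motifs, both strands, overlaps allowed) were tested on simulated data. Named genes were the 8 factors, members of the lists given, protein-coding neighbours with a TSS in a changed region, and genes like Hnf4a (a TSS in a DOWN region, at least as many DOWN regions within 100 kb and 0 UP regions there). The genes and lists were chosen with earlier results of these data known. Alternatives were other TSS sets, windows, widths and genes left out, and the basic-transcript windows were chosen after seeing the data. Some genes are not reported here. No tests were computed.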

Additional observations from a re-analysis of the deposited data

How the results depend on the processing

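No paired analysis was possible because the 3 lists used here hold no value per library; for the same reason depth and replicate error could not be set beside any count. Of 86 recomputed values, 76 stayed close to the reported one: counts within 1.5 times it, or, for the share, within its 95% Wilson interval, from 39.1% to 73.5%. That interval takes the 28 changed regions as independent, which regions around 1 gene are not. It served only to sort the values and is not an error of the share. The DOWN share without Hnf4a, 44.4%, lay in that interval but is not among the 76, since it fell below 50%. Many of the 86 values leave 1 gene out, and such counts follow from the counts per gene already given. The number 76 is thus no measure of how stable the results are. The number of genes with a TSS in a DOWN region was 4 under every choice of TSS and region width tried, and from 3 to 4 with 1 gene left out, and the number with a TSS in an UP region was 1 and from 0 to 1. DOWN regions within 100 kb, 16, became 29 in a 250 kb window and 8 when only regions over 1 kb from any TSS were kept, with a range from 8 to 16 over genes left out, the lowest without Hnf4a. UP regions, 12, became 5 in a 50 kb window, 4 when the nearest protein-coding TSS had to be that of the gene and 7 over 1 kb from any TSS, with a range from 8 to 12. With 1 gene left out, the DOWN share of changed regions ran from 44.4% without Hnf4a to 63.6% without Gata4. It was 73.3% where the nearest protein-coding TSS had to be that of the gene, 70.6% in a 50 kb window and 70.9% by base pairs. DOWN regions in gene bodies, 6, became 2 without regions at a TSS of the gene, with a range from 3 to 6. These moves follow from which regions each choice keeps.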

Other observations

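A search for genes with DOWN regions as many as at Hnf4a and no UP region, which is stricter on UP regions than Hnf4a itself (2 within 100 kb), found 1 protein-coding gene. Selenop, which encodes the selenium carrier of plasma, had a TSS in a DOWN region, at least as many DOWN regions within 100 kb as Hnf4a (8) and 0 UP regions there, with 5 unchanged ones. Likeness here is a count of regions only.

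The middle 500 bp of the 84 regions around the 8 genes that were at least that wide held the ONECUT letters ATCNAT in 48.8%, against 38.1% of 27821 such regions over the genome, and the narrower ATTGAT in 29.8%, against 15.4%. The FOXA letters TGTTTAC stood in 9.52%, against 8.71%, and the GATA letters AGATAA in 22.6%, against 22.5%. The AP-1 letters TGANTCA stood in 1 of the 16 DOWN, 5 of the 12 UP and 8 of the 56 unchanged regions around these genes, where 19.6% of DOWN, 34.8% of UP and 25.6% of unchanged regions over the genome held them. The ATF4/CHOP letters TGATGNAAT stood in 6 of the 84, against 3.12% over the genome. The HNF4 letters CAAAGTCCA stood in 1 of the 84 (1.76% over the genome), the D-box TTANGTAA in 2 (4.88%) and the CEBP letters TTGCGNAA in 0 (1.15%). Regions around 1 gene share their surroundings and are not independent, so these shares are descriptions.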
